A study of Caenorhabditis elegans with 33 samples.

Results

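The comparison set worms fed yghZ mutant bacteria against worms fed the BW25113 bacteria, and its members were the 3 libraries labelled yghZ and the 3 labelled BW25113, 6 of the 33 libraries in the series. The series measured the whole-body transcriptome of synchronized adult Caenorhabditis elegans of the wild-type strain N2 on 11 diets, BW25113 and 10 mutant bacteria, with 3 libraries each. All groups shared the N2 genotype and the adult stage, and differed by label in the bacteria they ate. The labels do not give the kind of yghZ mutation, the age in hours, the number of worms per library or whether the 3 libraries of a diet came from separate cultures, so p-values here measure the spread between libraries, which may be technical. No sequences are shown, because the reference tables used here held gene positions and names and no bases.

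BW25113 is a laboratory strain of Escherichia coli and the parent of a widely used collection of single-gene deletions. In E. coli, yghZ encodes an aldo-keto reductase that reduces L-glyceraldehyde 3-phosphate and can also reduce methylglyoxal, a reactive by-product of glycolysis. Worms clear methylglyoxal with a glutathione-dependent glyoxalase, carry aldo-keto reductases of their own, and grind up the bacteria they feed on, so that bacterial metabolites reach the intestine. The worm genes of these routes were therefore read first, followed by cuticle, germline, translation, metabolism and defence genes.

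The 6 libraries held 22.0 to 22.5 M estimated read counts each. The yghZ libraries spread their counts over more genes, with 16735, 16026 and 16357 genes above 0 against 15833, 15383 and 15806 on BW25113. The groups did not overlap in this number, and the exact two-sided permutation test gave p = 0.1, the smallest that 3 against 3 libraries allow. Trimmed-mean (TMM) scaling factors, which correct for libraries dominated by a few abundant genes, were 1.52, 0.95 and 1.13 on yghZ and 0.77, 0.73 and 0.86 on BW25113, and the exact permutation test again gave p = 0.1. Scaling by total counts instead of TMM, an alternative added after these factors were seen, moved the median log2 fold change of all genes from 0.00 to 0.61, so each direction below is relative to the middle gene under TMM. The library yghZ replicate 1 stood apart from the other 2, with r = 0.927 and 0.953 across genes on log2 CPM (read counts scaled to a common library size), where yghZ replicates 2 and 3 reached 0.978. BW25113 replicate 3 correlated more closely with yghZ replicates 2 and 3, at r = 0.985 and 0.977, than with BW25113 replicates 1 and 2, at 0.957 and 0.970, and it lay inside the yghZ range for several genes named here.

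No gene passed the test between yghZ and BW25113 in the 33-library fit, and no gene list held a called member there. Leaving aside families chosen after values were seen, the lists whose medians lay farthest from that of all genes are given as values. Cuticle collagens, the structural proteins of the worm's outer coat, had a median log2 fold change of 1.06 over 157 genes. The 46 sperm genes had a median of 1.11. The 81 cytosolic ribosomal protein genes had a median of -0.79, and the 7 genes for yolk proteins and their receptor a median of -1.15. The median over all 14696 genes tested was 0.00, and 49.9% of them had a log2 fold change above 0.

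By edgeR's quasi-likelihood test with Benjamini-Hochberg adjustment over 14696 genes, 0 genes (0.0%) were called at an adjusted p under 0.05, and the lowest adjusted p was 0.686. At an unadjusted p under 0.05 there were 986 genes (6.71%), of which 711 (4.84%) were higher on yghZ and 275 (1.87%) lower. DESeq2 on the same libraries also called 0 genes, with 1267 at an unadjusted p under 0.05. The 3 yghZ libraries lay above all 3 BW25113 libraries for 1330 genes (9.05%) and below them for 856 (5.82%). Counts of separated members in the lists below are to be read beside these shares.

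The number of called genes differed between fits. A fit of the 6 libraries alone, with the replicate number as a block, called 788 genes (6.33% of 12457 tested), 613 higher (4.92%) and 175 lower (1.4%), with a lowest edgeR adjusted p of 5.86e-07. This paired fit was added after same-numbered yghZ and BW25113 libraries had been seen to deviate together, and it was 1 of 20 alternative fits, of which 14 called no gene. It rests on 2 residual degrees of freedom, and without the replicate 1 pair it called 109 genes. The labels give the numbers no meaning, and only 14 of the 55 pairs of diets deviated together by the same criterion. The block over all 33 libraries called 0 genes, and so did edgeR on the 6 libraries without the block, with 1398 at an unadjusted p under 0.05. Of the 788 genes, 351 had an unadjusted p under 0.05 in the 33-library fit and 440 had no overlap between the groups. Below, "called in the paired fit" refers to these 788 genes, and such a call is not a call of the 33-library fit.

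**Figure D1:**
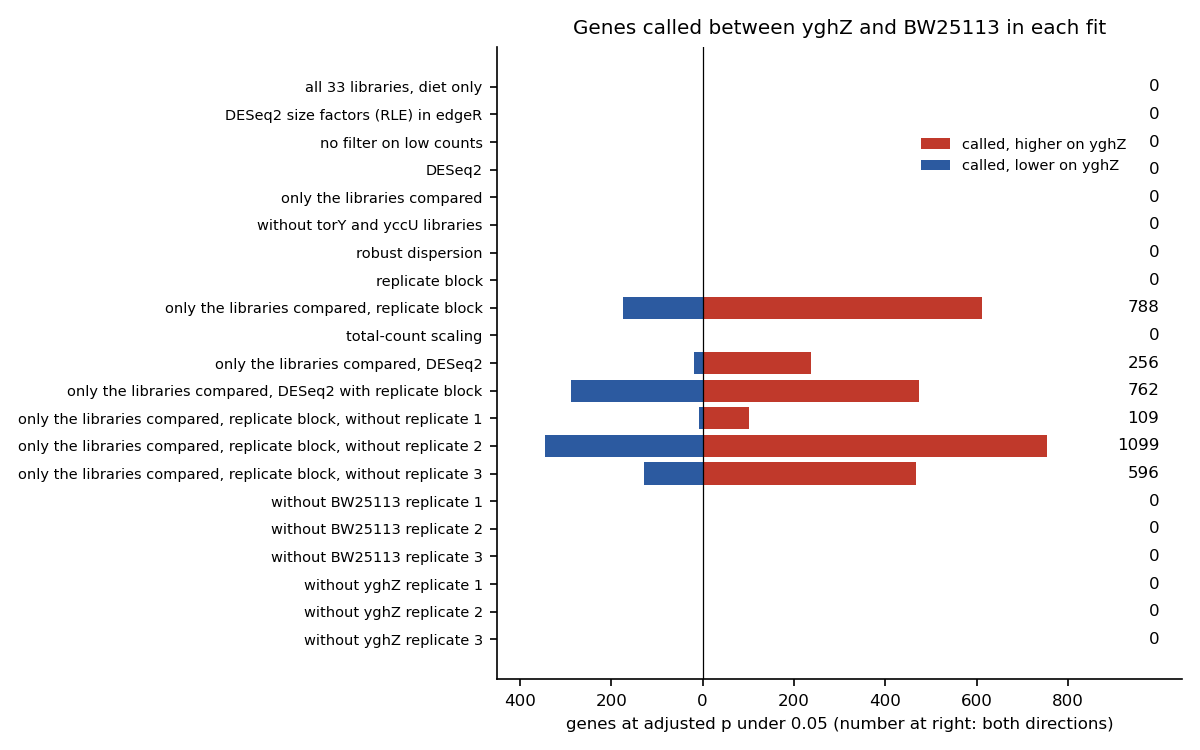
Genes at an adjusted p under 0.05 between yghZ and BW25113 in each fit, with the number higher on yghZ to the right of 0 and lower to the left (linear axis). Calls appear for the 6 libraries in edgeR with the block (788 genes) and in DESeq2 (256 without and 762 with the block). The block fits without 1 pair called 109, 1099 and 596 genes, and the other fits called 0.

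None of the worm's methylglyoxal and glutathione genes separated the diets. Of 7 tested, 3 had a positive and 4 a negative log2 fold change, and the median was -0.04. The glyoxalase gene glod-4 (chromosome III, 4153599 to 4154649 in WBcel235) stood at 21.6, 14.9 and 11.11 CPM on BW25113 and 24.9, 10.9 and 12.5 CPM on yghZ. The groups overlapped across most of their range, and the log2 fold change of yghZ over BW25113 was 0.02 ± 0.45 (SE), with an unadjusted p of 0.960 in edgeR. The glyoxalase-related gene djr-1.1, a homologue of human DJ-1, stood at 52.4, 46.5 and 40.2 CPM on BW25113 and 74.2, 47.7 and 57.2 CPM on yghZ. Its yghZ replicate 1 was the highest of the 6, yghZ replicate 2 lay within the BW25113 range, and its log2 fold change was 0.36 ± 0.24 (edgeR unadjusted p 0.142). The glycolytic enzyme tpi-1, triosephosphate isomerase, had a log2 fold change of -0.39 ± 0.31. The glutathione genes gcs-1 (the first step of glutathione synthesis), gss-1 (the second step) and gsr-1 (glutathione reductase) had log2 fold changes of -0.22 ± 0.41, -0.11 ± 0.26 and 0.03 ± 0.25. The ion channel gene trpa-1, through which methylglyoxal is sensed in worms, was low in all 6 libraries, at 0.748 ± 0.160 CPM on yghZ and 0.772 ± 0.220 on BW25113 (SD, n = 3 each). Under total-count scaling all 7 had a positive log2 fold change and their median was 0.58, beside 0.61 for all genes.

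The worm's own aldo-keto reductases, the same enzyme family that yghZ belongs to in bacteria, had log2 fold changes of both signs. Of 10 tested, 4 had a positive and 6 a negative log2 fold change, where 49.9% of all genes were positive. Of the 10, 3 had all yghZ libraries below all BW25113 libraries, beside 5.82% of all genes. The median was -0.29, or -0.18 without yghZ replicate 1. Y39G8B.2 (chromosome II, 13973852 to 13976221) stood at 15.3, 17.2 and 11.2 CPM on BW25113 and 3.86, 9.26 and 6.44 CPM on yghZ. The groups did not overlap, the log2 fold change was -1.16 ± 0.51, and edgeR gave an unadjusted p of 0.0319 and an adjusted p of 0.686. It was the 1 member of 10 called in the paired fit, at -1.18 ± 0.31 and an edgeR adjusted p of 0.0171. That fit called 1.4% of all genes lower. Its neighbour Y39G8B.1 stood at 134, 109.8 and 71.4 CPM on BW25113 and 65.8, 73.8 and 64.0 CPM on yghZ, with yghZ replicate 2 just above BW25113 replicate 3 and a log2 fold change of -0.63 ± 0.35. C07D8.6 stood at 334, 399.8 and 256 CPM on BW25113 and 155, 251 and 252 CPM on yghZ, separated by the narrow gap between yghZ replicate 3 and BW25113 replicate 3, with -0.59 ± 0.47. C01G5.5 was also separated, at 10.00 ± 2.45 CPM on yghZ and 12.9 ± 0.814 on BW25113, and its log2 fold change was -0.37 ± 0.29. The excretory-canal gene exc-15 had -0.51 ± 0.37 and F53F1.2 had -0.20 ± 0.22. The remaining members ZK1290.5, ZC443.1, F53F1.3 and C35D10.6 had positive values of 0.51 ± 0.47, 0.44 ± 0.59, 0.28 ± 0.37 and 0.06 ± 0.36, all with overlapping groups. Under total-count scaling the median of the list turned positive, 0.28, and 3 of the 10 stayed negative. The 14 aldehyde and alcohol dehydrogenases tested had a median of -0.15, or 0.04 without yghZ replicate 1, with 0 called in either fit.

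Most cuticle collagens had a positive log2 fold change. The cuticle is rebuilt at each larval moult from collagens made in waves by the epidermis, and adults continue to make a subset. Of 157 tested, 110 had a positive log2 fold change, 68 had all yghZ libraries above all BW25113 libraries and 2 had all below, where the shares over all genes were 9.05% and 5.82%. At an unadjusted p under 0.05 there were 19 higher and 3 lower in the edgeR fit of all libraries, and 0 were called. The paired fit called 67 of 137 higher (48.91%) and 9 lower (6.569%), beside 4.92% and 1.4% of all genes. Without the replicate 1 pair, with 1 residual degree of freedom, it called 42 higher and 4 lower. Over all genes that fit called 101 higher and 7 lower. The list's median was 1.06 with all libraries, 0.91 without yghZ replicate 1 and 1.65 under total-count scaling.

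The body-size collagen lon-3 (chromosome V, 12197437 to 12198645) stood at 1.11, 0.797 and 1.45 CPM on BW25113 and 36.8, 4.11 and 15.4 CPM on yghZ. Every yghZ library lay above every BW25113 library, and yghZ replicate 1 lay far above the other 2. The log2 fold change was 4.06 ± 1.31, with an unadjusted p of 0.00432 and an adjusted p of 0.686 in edgeR, and 3.12 without yghZ replicate 1. In the paired fit it was called, with 3.74 ± 0.42 and an edgeR adjusted p of 2.79e-06. The collagen bli-2 (chromosome II, 5651394 to 5652434), needed to hold the layers of the adult cuticle together, stood at 2.39, 0.674 and 2.27 CPM on BW25113 and 40.5, 6.57 and 19.5 CPM on yghZ. Its groups did not overlap, the log2 fold change was 3.63 ± 1.42 (edgeR unadjusted p 0.0166), and it had the lowest adjusted p of the paired fit, 5.86e-07 in edgeR. The collagen col-58 (chromosome I, 6311229 to 6312416) stood at 3.32, 0.613 and 1.40 CPM on BW25113 and 23.6, 4.16 and 11.42 CPM on yghZ. All yghZ values were above all BW25113 values, by less than 1 CPM at the closest pair, and the log2 fold change was 2.87 ± 1.0 with an edgeR paired adjusted p of 4.21e-06. The collagen col-61 had a log2 fold change of 2.54 ± 0.86 at 2.60 ± 0.988 CPM on yghZ and 0.438 ± 0.271 on BW25113. Members chosen after their values were seen, for a low p in the paired fit, were col-156, col-137, col-63, col-175, col-60, col-120, sqt-2 and rol-8. Of these, col-156 stood at 4.2, 2.39 and 6.25 CPM on BW25113 and 30.3, 17.0 and 30.8 CPM on yghZ. Its 3 yghZ libraries were all more than 10 CPM above the BW25113 libraries, and its log2 fold change was 2.60 ± 1.25 (edgeR unadjusted p 0.0464, paired adjusted p 2.79e-06).

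Of the 9 collagens called lower in the paired fit, dpy-10 and dpy-17 had overlapping groups. The furrow collagen dpy-10 stood at 36.4, 22.1 and 10.13 CPM on BW25113 and 6.38, 14.7 and 7.66 CPM on yghZ. It was highest in BW25113 replicates 1 and 2, and BW25113 replicate 3 lay within the yghZ range. The collagen dpy-17 stood at 644, 346 and 84.5 CPM on BW25113 and 21.2, 136 and 25.0 CPM on yghZ, again with BW25113 replicate 3 inside the yghZ range. These 2 genes, chosen after their values were seen, had paired edgeR adjusted p of 0.0415 and 0.00175. The 41 larval moulting and apical matrix genes tested had a median of -0.14. Of these, 6 were separated upward and 3 downward, beside 9.05% and 5.82% of all genes. The paired fit called 7 of 40 higher and 3 lower, beside 4.92% and 1.4% of all genes. Among the 41 genes, the hedgehog-related gene wrt-4 stood at 1.69, 1.29 and 2.17 CPM on BW25113 and 10.5, 4.11 and 8.02 CPM on yghZ. The groups were separated, with a log2 fold change of 2.13 ± 0.73 and an edgeR unadjusted p of 0.00659. The hedgehog-related grl-21 had 2.13 ± 0.90, the cuticle collagen dpy-9 1.90 ± 0.83 and the transcription factor grh-1, which drives cuticle formation, -1.23 ± 0.53. Against the other 9 mutant diets the collagen list had a median of -0.12, and the torY, yccU and yjgU libraries stood 1.94 to 2.99, 1.1 to 2.56 and 1.06 to 1.80 log2 above the BW25113 mean where yghZ stood 0.74 to 0.97.

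**Figure D2:**
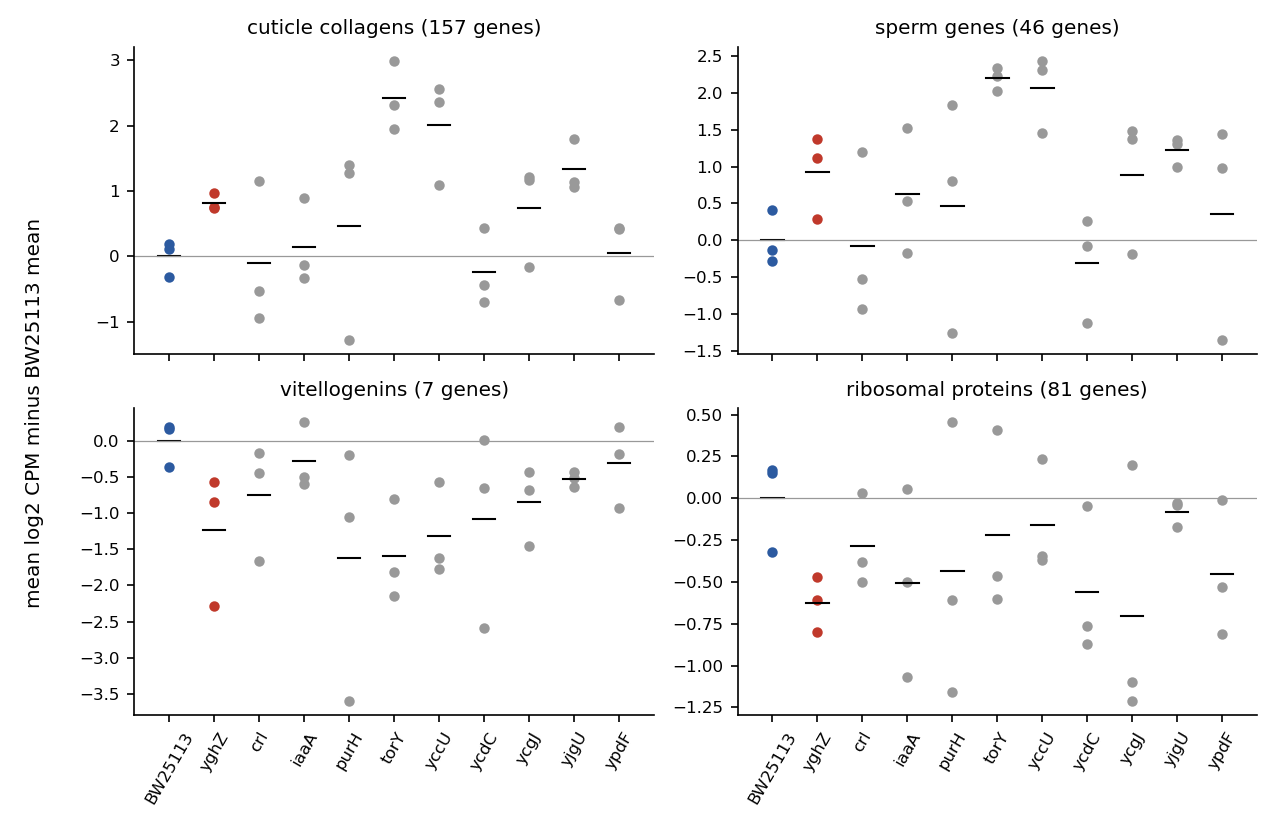
Mean log2 CPM of 4 gene lists in each of the 33 libraries, minus the BW25113 mean of the same genes, by diet (points: libraries, bars: means of 3). The 3 yghZ libraries lie between 0.74 and 0.97 for cuticle collagens and between -0.80 and -0.47 for ribosomal proteins, outside the BW25113 range and inside the range of the other mutants.

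Beyond the collagens, the genes higher on yghZ with the lowest unadjusted p and separated groups included members of secreted and membrane protein families. The hedgehog-related gene grd-14 (chromosome X, 8500021 to 8501037) stood at 8.45, 12.9 and 15.2 CPM on BW25113 and 65.5, 16.2 and 28.8 CPM on yghZ. The groups did not overlap but came within about 1 CPM, and the log2 fold change of 1.60 ± 0.45 (edgeR unadjusted p 0.00155, adjusted p 0.686) was 0.89 without yghZ replicate 1. The related gene grd-5 (chromosome V, 8619032 to 8619870) stood at 96.5, 99.0 and 99.7 CPM on BW25113 and 274, 168 and 202 CPM on yghZ. The BW25113 libraries were within 4 CPM of each other and every yghZ library was above them, with a log2 fold change of 1.12 ± 0.35 and an edgeR unadjusted p of 0.00315. Both were called in the paired fit, with edgeR adjusted p of 0.0190 and 0.0393. The family, chosen after values were seen, held 41 tested hedgehog-related genes with a median of 0.70. Of these, 12 were separated upward and 1 downward, beside 9.05% and 5.82% of all genes. The family's median was 0.29 without yghZ replicate 1 and -0.30 against the other 9 mutants. The torY and yccU libraries stood 1.81 to 2.41 and 0.58 to 2.26 log2 above the BW25113 mean, where yghZ stood 0.34 to 0.93.

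The sugar transporter gene swt-3 stood at 5.19, 7.66 and 10.5 CPM on BW25113 and 44, 11.7 and 26.0 CPM on yghZ. Its yghZ libraries lay above the BW25113 libraries, with a log2 fold change of 1.81 ± 0.56, an edgeR unadjusted p of 0.00303 and a paired adjusted p of 0.00418. The transthyretin-like gene ttr-31 stood at 6.47, 6.19 and 9.56 CPM on BW25113 and 25.4, 10.8 and 14.8 CPM on yghZ, separated by about 1 CPM, with 1.2 ± 0.40. The tubulin acetyltransferase gene mec-17, known for its role in touch receptor neurons, stood at 4.72, 4.41 and 4.60 CPM on BW25113 and 13.0, 5.81 and 8.65 CPM on yghZ. The BW25113 values were nearly equal and the yghZ values all higher, with a log2 fold change of 1.0 ± 0.36, and it was not called in the paired fit (edgeR adjusted p 0.0757).

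The nspc genes, a family of small nematode-specific peptides in clusters on the X chromosome, had mostly positive values. This family was chosen after values were seen, and its copies are similar enough that reads may be shared among them. Of 16 tested, 15 had a positive log2 fold change and 12 were separated upward, beside 49.9% and 9.05% of all genes. The family's median was 0.91, or 0.66 without yghZ replicate 1. The paired fit called 8 of the 16 higher, beside 4.92% of all genes, and 0 without the replicate 1 pair. The member nspc-20 stood at 8.80, 7.84 and 12.1 CPM on BW25113 and 33.2, 16.9 and 20.5 CPM on yghZ. Its yghZ libraries were all higher, with a log2 fold change of 1.29 ± 0.42 and an edgeR unadjusted p of 0.00449. The members nspc-14 and nspc-13 had 1.22 ± 0.41 and 1.19 ± 0.43.

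**Figure D3:**
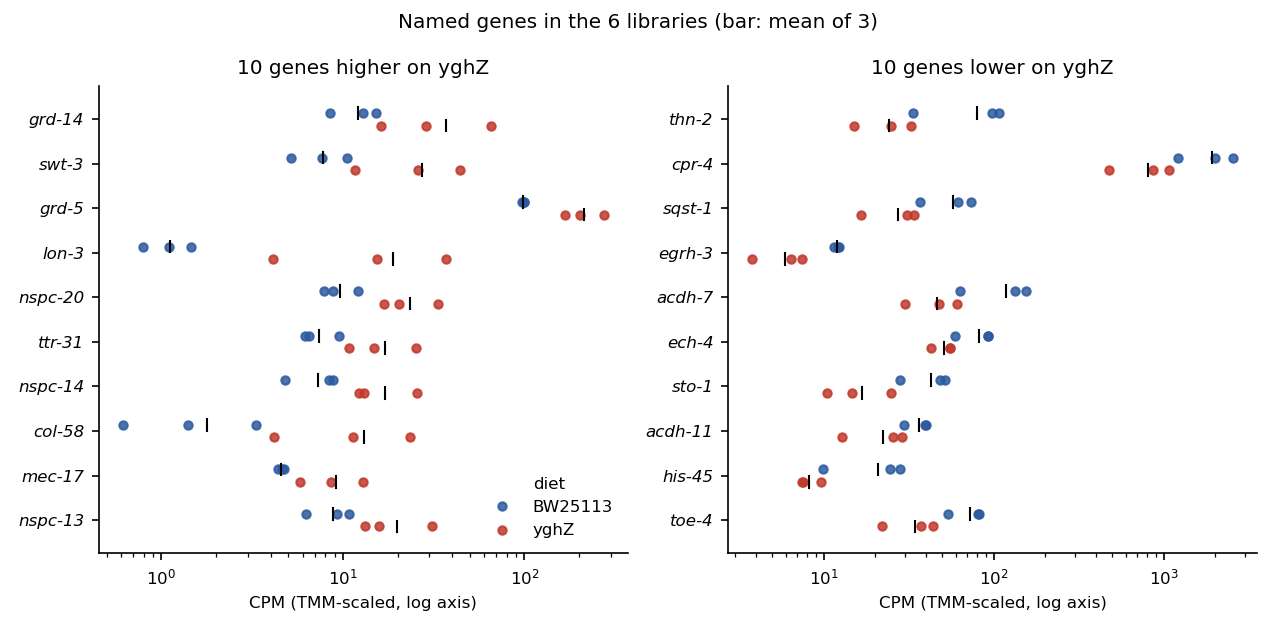
CPM (TMM-scaled, log axis) of the 10 genes higher and 10 lower on yghZ that the naming rule picked, in each of the 6 libraries (points) with the mean of 3 (bars). The rule asked for groups that do not overlap, so the separation is no result; on the log axis lon-3 spans the widest range on yghZ, from 4.11 to 36.8 CPM.

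The 7 genes of the yolk had a median of -1.15, or -0.77 without yghZ replicate 1, with 0 called and 1 at an unadjusted p under 0.05. Set against the other 9 mutants, their median was -0.27. The vitellogenins are yolk proteins made in the intestine and taken up by oocytes through the receptor RME-2. The vitellogenin vit-2 (chromosome X, 5101042 to 5106169) stood at 23022, 26733 and 25067 CPM on BW25113 and 5006, 14338 and 11883 CPM on yghZ. All yghZ libraries lay below all BW25113 libraries, yghZ replicate 1 by the most, and the log2 fold change was -1.26 ± 0.61 with an unadjusted p of 0.0483 and an adjusted p of 0.686 in edgeR. Without yghZ replicate 1 it was -0.93, and under total-count scaling -0.76. Per length, vit-2 stood at 2199 ± 811 TPM on yghZ and 3844 ± 661 TPM on BW25113 in the deposited TPM values. The vitellogenins vit-3, vit-4, vit-5 and vit-6 were separated in the same direction, with log2 fold changes of -1.15 ± 0.75, -1.19 ± 0.70, -1.21 ± 0.66 and -1.08 ± 0.59, and vit-1 and rme-2 overlapped. None of the 7 was called in the paired fit. The 6 vit genes held 5.78%, 7.22% and 8.62% of counts on BW25113 and 2.77%, 5.35% and 5.41% on yghZ.

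The 41 oocyte and eggshell genes tested had a median of -0.54, with 40 negative and 0 at an unadjusted p under 0.05 in edgeR. Of the 41, 5 were separated downward, beside 5.82% of all genes. Their mean log2 level was -0.24 to 0.13 on BW25113 and -1.55, 0.04 and -0.42 on yghZ, so yghZ replicate 2 lay inside the BW25113 range. The paired fit called 1 of these 41 genes lower, beside 1.4% of all genes. The median was -0.19 without yghZ replicate 1 and -0.07 under total-count scaling. The RNA-binding protein gene puf-5, which acts in oocyte maturation, stood at 1465, 1578 and 1106 CPM on BW25113 and 326, 838 and 576 CPM on yghZ. Its groups were separated, with a log2 fold change of -1.25 ± 0.62 and an edgeR unadjusted p of 0.0521. The eggshell vitelline-layer genes perm-2 and perm-4 had -1.14 ± 0.63 and -0.98 ± 0.63, both separated, and the Y-box protein gene cey-2 had -0.75 ± 0.51 with overlap. The 27 embryonic fate genes had a median of -0.53, with 8 separated downward, and it changed sign under total-count scaling (0.06). In whole worms, fewer oocytes or embryos and less RNA per cell cannot be told apart.

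Most sperm genes had a positive log2 fold change, with overlap between the diets. Of 46 tested, 41 were positive, 3 had an unadjusted p under 0.05 in edgeR and 11 were separated upward, beside 9.05% of all genes, with a median of 1.11 and of 0.86 without yghZ replicate 1. The paired fit called 11 of 29 higher, beside 4.92% of all genes, and 0 without the replicate 1 pair. The sperm gene spe-46 stood at 0.408, 0.490 and 1.24 CPM on BW25113 and 5.99, 0.993 and 2.45 CPM on yghZ. BW25113 replicate 3 lay above yghZ replicate 2, so the groups overlapped, and the log2 fold change was 2.13 ± 0.97 with an edgeR unadjusted p of 0.0370. The paternal factor gene spe-11 and nspd-8, of a small family expressed in sperm, had 1.84 ± 1.13 and 1.82 ± 1.11, both with overlap. The kinase gene spe-6, which restrains sperm activation, stood at 2.39, 2.27 and 2.22 CPM on BW25113 and 3.80, 2.93 and 3.75 CPM on yghZ. Its groups were separated by less than 1 CPM, with 0.61 ± 0.34. Levels of these 4 genes were low, under 8 CPM in each of the 6 libraries. In 2 of the other diets, torY and yccU, the sperm list stood 1.46 to 2.43 log2 above the BW25113 mean, where yghZ stood 0.28 to 1.38 and the BW25113 libraries -0.28 to 0.42. The lowest yghZ library, replicate 2, lay inside the BW25113 range, and against the other 9 mutants the list's median was -0.10.

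Most ribosomal protein genes had a negative log2 fold change under TMM. Of 81 tested, 70 were negative, 12 of them at an unadjusted p under 0.05 in edgeR, and 43 had all yghZ libraries below all BW25113 libraries, beside 5.82% of all genes. The median was -0.79, -0.65 without yghZ replicate 1 and -0.21 under total-count scaling, and 0 were called lower in the paired fit. The small-subunit gene rps-1 stood at 7465, 7247 and 4624 CPM on BW25113 and 2140.0, 3719 and 2834 CPM on yghZ. The 3 yghZ libraries were the 3 lowest, and the log2 fold change was -1.15 ± 0.46 with an edgeR unadjusted p of 0.0177. The large-subunit genes rpl-25.2, rpl-12 and rpl-3 had -1.07 ± 0.42, -1.0 ± 0.41 and -1.17 ± 0.52. As a share of all counts the 81 genes held 25.6%, 24.5% and 19.1% on BW25113 and 21.9%, 18.6% and 19.3% on yghZ, so on that scale the groups overlapped. The 70 mitochondrial ribosomal protein genes, a list chosen after values were seen, had a median of 0.01. The paired fit called 2 of the 70 lower, beside 1.4% of all genes. The gene mrps-16 had one of the lowest adjusted p of the paired fit, 6.13e-07 in edgeR, though its groups overlapped. It stood at 42.0, 0 and 4.44 CPM on BW25113 and 1.02, 0 and 0 CPM on yghZ. Its log2 fold change was -5.39 ± 2.65, or -2.62 without BW25113 replicate 1.

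Core and linker histone genes had a median of -0.75 over 31 tested, with 28 negative. Of the 31, 9 were separated downward and 1 upward, beside 5.82% and 9.05% of all genes. Under total-count scaling the median was -0.21, with 21 negative and 10 positive, and against the other 9 mutants it was -0.20. Counts of replication-dependent histones, whose messages are made mainly during DNA replication, depend on how RNA without a poly(A) tail was captured. The labels do not give this. The linker histone gene his-24 (chromosome X, 14490094 to 14491119) stood at 898, 877 and 411 CPM on BW25113 and 101, 414 and 142 CPM on yghZ. BW25113 replicate 3 lay just below yghZ replicate 2, and the log2 fold change was -1.73 ± 0.79 with an edgeR unadjusted p of 0.0360 and a paired adjusted p of 0.00480. The histone gene his-45 stood at 24.7, 28.2 and 9.97 CPM on BW25113 and 7.51, 9.69 and 7.55 CPM on yghZ, separated by less than 1 CPM, with -1.35 ± 0.53 and a paired edgeR adjusted p of 0.0138. The related his-47 and hil-2 had -1.27 ± 0.56 and -1.14 ± 0.52. The paired fit called 8 of 28 histone genes lower, beside 1.4% of all genes, and 1 without the replicate 1 pair. Core histone genes are near-identical copies, so single members are uncertain.

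The 27 genes of glycolysis, gluconeogenesis and the glyoxylate cycle had a median of -0.54, with 22 negative, 5 at an unadjusted p under 0.05 in edgeR and 11 separated downward, beside 5.82% of all genes. Of 26 in the paired fit, 3 were called lower, beside 1.4% of all genes, and 0 without the replicate 1 pair or without the replicate 2 pair. The median was -0.31 without yghZ replicate 1 and -0.00 under total-count scaling. The glyoxylate-cycle gene icl-1 (chromosome V, 724332 to 728004), which lets worms make sugar from fat, stood at 1069.9, 608 and 215 CPM on BW25113 and 128, 248 and 182 CPM on yghZ. BW25113 replicate 3 lay within the yghZ range and replicates 1 and 2 well above it. Its log2 fold change was -1.76 ± 0.51 with an unadjusted p of 0.00183 in edgeR, and it was called in the paired fit (edgeR adjusted p 0.0410). The gluconeogenic gene pck-1 stood at 494, 384 and 264 CPM on BW25113 and 151, 233 and 189 CPM on yghZ. It was separated, with -1.0 ± 0.42, as were the malate dehydrogenase mdh-1 (-0.90 ± 0.39) and the glyceraldehyde-3-phosphate dehydrogenase gpd-4 (-1.29 ± 0.58). The gpd genes are close copies, and reads may be shared between them. The 45 nuclear genes of the respiratory chain had a median of -0.46, with 13 separated downward, beside 5.82% of all genes. The sign of this median turned under total-count scaling (0.14).

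Genes of insulin-like signalling and known targets of DAF-16, the transcription factor that this pathway holds back, had a median of -0.52 over 22 tested. Of the 22, 21 were negative and 2 were separated downward, beside 5.82% of all genes separated downward. The DAF-16 target dod-3 stood at 30.0, 29.8 and 1.08 CPM on BW25113 and 5.36, 1.18 and 1.23 CPM on yghZ. BW25113 replicates 1 and 2 were high and replicate 3 was as low as the yghZ libraries, so its log2 fold change of -2.95 ± 0.89 (edgeR unadjusted p 0.00249, paired adjusted p 0.00398) rested on 2 libraries. The desiccation-response gene lea-1 and the small heat shock gene sip-1 had -1.54 ± 0.52 and -1.27 ± 0.56. The list's median was -0.31 without yghZ replicate 1 and 0.02 under total-count scaling. The 30 insulin-like peptides tested had a median of 0.38, or 0.13 without yghZ replicate 1, with 6 separated upward, beside 9.05% of all genes. The peptide gene ins-26 (chromosome I, 14037151 to 14037777) stood at 2.1, 2.51 and 1.60 CPM on BW25113 and 5.21, 4.30 and 4.86 CPM on yghZ. The replicates of each diet were close and the groups separated by more than 1 CPM, with a log2 fold change of 1.21 ± 0.38, an edgeR unadjusted p of 0.00345 and a paired adjusted p of 0.0296. The peptide genes ins-33, ins-35 and ins-37 had 1.39 ± 0.65, 1.78 ± 0.84 and 1.26 ± 0.81, and ins-35 was 1.0 without yghZ replicate 1.

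Of the 10 genes lower on yghZ with the lowest unadjusted p and separated groups, his-45 is given above. The thaumatin-like gene thn-2, known as a pathogen-response gene, stood at 97.8, 107 and 33.7 CPM on BW25113 and 15.1, 32.6 and 25.1 CPM on yghZ. BW25113 replicate 3 came within about 1 CPM of yghZ replicate 2, and the log2 fold change was -1.71 ± 0.53 with an edgeR unadjusted p of 0.00320 and a paired adjusted p of 0.00532. The cathepsin B-like protease gene cpr-4 stood at 2554, 2007 and 1217 CPM on BW25113 and 479, 1079 and 870.0 CPM on yghZ. Its groups were separated, with -1.25 ± 0.41, and it was not called in the paired fit (edgeR adjusted p 0.0911). The autophagy receptor gene sqst-1 stood at 74.0, 61.6 and 36.7 CPM on BW25113 and 16.6, 34.1 and 31.0 CPM on yghZ, separated, with -1.08 ± 0.36 and a paired edgeR adjusted p of 0.0508, over the threshold.

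The acyl-CoA dehydrogenase gene acdh-7 stood at 155, 134 and 63.9 CPM on BW25113 and 30.3, 61.1 and 47.9 CPM on yghZ. It takes part in fatty acid breakdown, its groups were separated by the gap between BW25113 replicate 3 and yghZ replicate 2, and its log2 fold change was -1.34 ± 0.47. The related acdh-11 and the enoyl-CoA hydratase-like ech-4 had -0.70 ± 0.28 and -0.67 ± 0.24. Of 13 acyl-CoA dehydrogenases, a family chosen after values were seen, 8 were positive and 5 negative, with 3 higher and 3 lower at an unadjusted p under 0.05 in edgeR. The remaining named genes were egrh-3 at -1.03 ± 0.36, the stomatin-like sto-1 at -1.35 ± 0.49 and toe-4 at -1.07 ± 0.42. The paired fit called egrh-3, acdh-7, sto-1 and toe-4 lower, with edgeR adjusted p of 0.0362, 0.0258, 0.00515 and 0.0366. For ech-4 and acdh-11 it did not call a difference (0.236 and 0.146). All 10 kept a negative log2 fold change under total-count scaling, the smallest in size being ech-4 at -0.08.

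Defence and detoxification genes showed members in both directions. The 37 pathogen-response genes had a median of -0.15, or -0.08 without yghZ replicate 1, with 4 higher and 1 lower at an unadjusted p under 0.05 in edgeR. The dod-24 gene, a CUB-domain gene of the pathogen response, stood at 5.13, 8.58 and 4.55 CPM on BW25113 and 68.3, 6.90 and 16.6 CPM on yghZ. It was high in yghZ replicate 1, and yghZ replicate 2 lay within the BW25113 range. Its log2 fold change was 2.33 ± 0.68 (edgeR unadjusted p 0.00203) and 0.95 without yghZ replicate 1. The infection-response gene irg-5 and the related dod-17 had 1.74 ± 0.64 and 1.62 ± 0.73, and the paired fit called both, at edgeR adjusted p of 0.00693 and 0.0164. The 157 xenobiotic enzymes, cytochromes P450, UDP-glucuronosyl transferases and glutathione S-transferases, had a median of 0.36, or 0.14 without yghZ replicate 1. Of these, 11 were separated upward and 4 downward, smaller shares than the 9.05% and 5.82% of all genes. The transferase ugt-46 stood at 18.9, 20.1 and 28.3 CPM on BW25113 and 37.9, 32.2 and 46.1 CPM on yghZ. Its yghZ libraries were all higher, with 0.79 ± 0.33 and an edgeR unadjusted p of 0.0235. The glutathione S-transferases gst-28, gst-19 and gst-6 had 0.85 ± 0.35, 2.83 ± 1.21 and 1.11 ± 0.49, and gst-19 was 0.99 without yghZ replicate 1. The catalase genes ctl-1, ctl-2 and ctl-3 lie side by side on chromosome II as close copies, and their counts may be shared. Of these, ctl-2 stood at 114.7, 88.1 and 32.7 CPM on BW25113 and 28.1, 40.0 and 35.8 CPM on yghZ. BW25113 replicate 3 lay within the yghZ range, and the log2 fold change was -1.18 ± 0.32 with an edgeR unadjusted p of 9.49e-04.

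In the methionine, vitamin B12 and propionate routes, which respond to bacterial diet in worms, the median over 31 genes was -0.06, or 0.01 without yghZ replicate 1. The cystathionine gamma-lyase genes cth-1 and cth-2 make cysteine in the transsulfuration pathway. The gene cth-2 stood at 139, 122 and 188 CPM on BW25113 and 271, 224 and 210.5 CPM on yghZ. The yghZ libraries were all higher, with a log2 fold change of 0.65 ± 0.26 and an edgeR unadjusted p of 0.0183. The gene cth-1 was also separated, at 39.8, 30.0 and 20.5 CPM on BW25113 and 113.5, 57 and 56.9 CPM on yghZ, with 1.33 ± 0.57. Its neighbour on chromosome V, the arginine kinase gene argk-1, stood at 16.4, 11.8 and 9.97 CPM on BW25113 and 38.4, 24.9 and 29.9 CPM on yghZ. All yghZ libraries were above all BW25113 libraries, with 1.29 ± 0.60 and an edgeR unadjusted p of 0.0411. Against the other 9 mutants, argk-1, cth-1 and cth-2 had -0.52 ± 0.46, -0.05 ± 0.42 and 0.27 ± 0.19. The other mutant libraries had medians of 41.9 CPM for argk-1 and 87.8 CPM for cth-1, where the yghZ means were 31.1 and 75.8 CPM. Among the 5 arginine kinase genes tested the median was -0.60, and 3 were separated downward, beside 5.82% of all genes. These were ZC434.8 at -0.97 ± 0.43, F46H5.3 at -0.96 ± 0.54 and W10C8.5 at -0.60 ± 0.42. The fifth, F32B5.1, had 0.95 ± 0.86 with overlap. The 103 neuropeptide genes had a median of 0.23, or 0.15 without yghZ replicate 1, and 0.03 against the other 9 mutants. Of these, 18 were separated upward and 1 downward, beside 9.05% and 5.82% of all genes. The 14 genes of oxygen sensing and social feeding, the behaviour named in the series' title, had a median of -0.25, or -0.06 without yghZ replicate 1, and 0 separated in either direction.

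Tissue marker lists also had negative medians under TMM. All 16 body-wall muscle markers had a negative log2 fold change, with 8 separated downward, beside 5.82% of all genes. The muscle median was -0.63, or -0.33 without yghZ replicate 1, and -0.38 against the other 9 mutants. Under total-count scaling it was -0.09, with 7 markers positive and 9 negative, and the paired fit called 0 of these markers. Their mean log2 level was -0.16 to 0.10 on BW25113 and -1.18 to -0.21 on yghZ. The muscle myosin light chain gene mlc-2 stood at 1874, 1632 and 938 CPM on BW25113 and 699, 877 and 869.6 CPM on yghZ. Its groups were separated, with -0.86 ± 0.35. The 13 intestine, 14 pharynx, 17 neuron and 12 epidermis markers had medians of -0.20, -0.15, -0.29 and -0.39. Without yghZ replicate 1 these medians were 0.07, -0.10, -0.08 and -0.31, so the intestine median changed sign. Under total-count scaling all 4 medians changed sign, to 0.37, 0.40, 0.31 and 0.18, beside 0.61 for all genes. The epidermal cuticle collagen rol-6, at 2.57 ± 1.25, was 1 of 2 positive members of the epidermis list under TMM. The part that tissue proportions play in the gene lists was not tested.

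**Figure D4:**
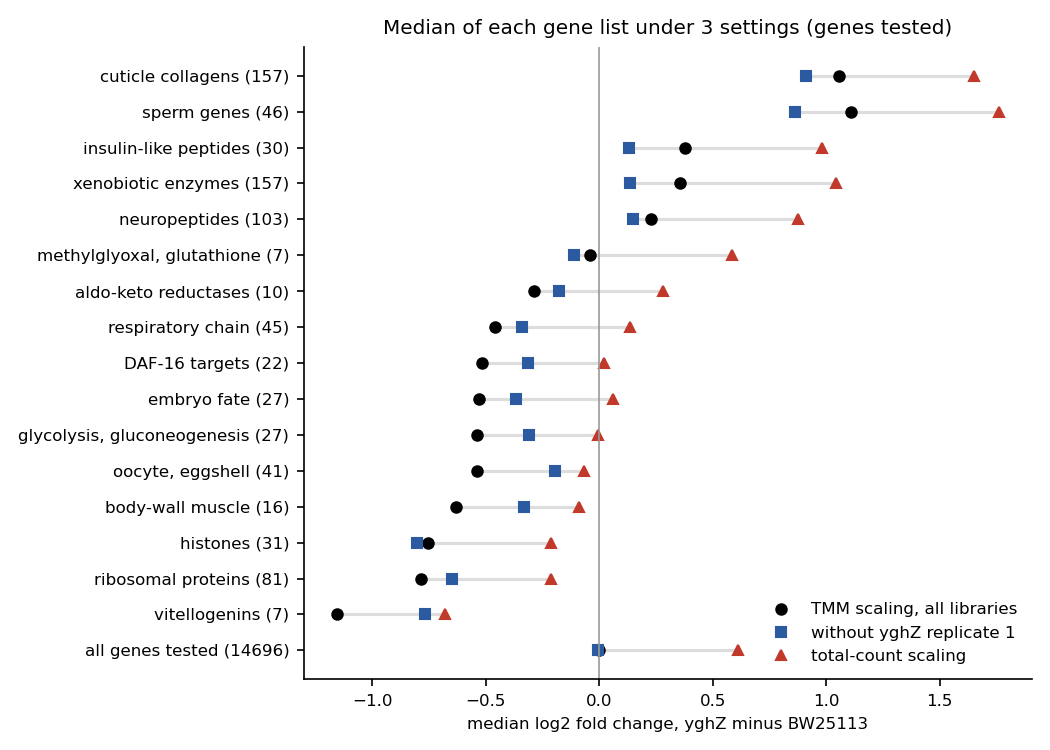
Median log2 fold change of yghZ over BW25113 for 16 gene lists and all genes tested (number of genes in brackets), under TMM scaling with all libraries, without yghZ replicate 1, and under total-count scaling. Total-count scaling shifts the lists upward together with all genes (median 0.61), and leaving out yghZ replicate 1 brings the sperm median from 1.11 to 0.86 and the vitellogenin median from -1.15 to -0.77.

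Set against the mean of the other 9 mutant diets, which leaves the BW25113 libraries out of the contrast, yghZ also gave no called gene. EdgeR called 0 of 14696 genes (0.0%), with a lowest adjusted p of 0.506, and 222 (1.51%) had an unadjusted p under 0.05, of which 87 (0.592%) were higher on yghZ and 135 (0.919%) lower. DESeq2 called 1 gene, T14G10.8, listed at 0 in all 3 yghZ libraries and at 0 to 18.4 CPM with a median of 0.500 over the 27 libraries of the other mutants. On BW25113 this gene was also near 0, at 0, 0.0613 and 0 CPM. For the same contrast edgeR gave it an unadjusted p of 0.9998. The same yghZ libraries enter both contrasts. In this contrast the lowest values among named genes were for lipase-like lipl-1, at -1.62 ± 0.47 (edgeR unadjusted p 0.00176), and the alcohol dehydrogenase sodh-1, at -1.51 ± 0.57. The other mutant libraries spanned 1.85 to 20.3 CPM with a median of 5.74 for lipl-1, where the 3 yghZ libraries had 2.1, 1.28 and 2.81 CPM. The genes hda-5 (a histone deacetylase), ctl-2, dhs-24 (a short-chain dehydrogenase) and unc-78 (an actin-interacting protein) had -0.76 ± 0.22, -0.77 ± 0.25, -0.51 ± 0.18 and -0.48 ± 0.18. On the higher side, nspc-14, nspc-16 and nspc-17 had 0.88 ± 0.28, 0.88 ± 0.31 and 0.91 ± 0.33, the lectins clec-47 and clec-97 1.44 ± 0.48 and 0.55 ± 0.19, and the lysozyme lys-4 0.93 ± 0.34.

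The lowest p of that contrast fell on cyp-35 genes, cytochromes P450 that are induced by foreign compounds and take part in fat storage. They were outside the naming rule and were chosen after their values were seen. The gene cyp-35A3 (chromosome V, 4022609 to 4024482) stood at 4.43, 1.59 and 9.51 CPM on BW25113 and 4.22, 11.3 and 10.4 CPM on yghZ. The yghZ and BW25113 libraries overlapped, and the other mutants spanned 0.0444 to 13.8 CPM with a median of 1.24, so that yghZ stood 2.72 ± 0.58 log2 above their mean (edgeR unadjusted p 6.97e-05, adjusted p 0.506). In the 30 mutant libraries alone with the replicate block, a fit added after the data were seen, cyp-35A3 was called, with an edgeR adjusted p of 0.0200. Its close copy cyp-35A4 had 2.79 ± 0.58 at 0.175, 0.613 and 1.65 CPM on BW25113 and 0.629, 1.37 and 1.42 CPM on yghZ. Reads may be shared between them. The gene cyp-35C1 (chromosome V, 13896663 to 13898487) stood at 14.1, 7.23 and 16.7 CPM on BW25113 and 24.7, 18.3 and 22.2 CPM on yghZ. All yghZ libraries were above all BW25113 libraries, with 0.77 ± 0.47 against BW25113 and 1.40 ± 0.31 against the other mutants (edgeR unadjusted p 1.03e-04, adjusted p 0.506). The yjgU libraries had cyp-35A3 values of 4.71 to 13.8 CPM, as high as yghZ. Replicate 2 of crl, torY and ycdC, at 4.64, 4.99 and 5.68 CPM, lay above yghZ replicate 1. For cyp-35C1, replicate 2 of crl, ycdC and yjgU had 23.6, 24.9 and 20.2 CPM, as high as yghZ. The remaining mutant libraries lay below the yghZ range of cyp-35C1. Of 9 cyp-35 genes tested, 8 had a positive log2 fold change against the other mutants.

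**Figure D5:**
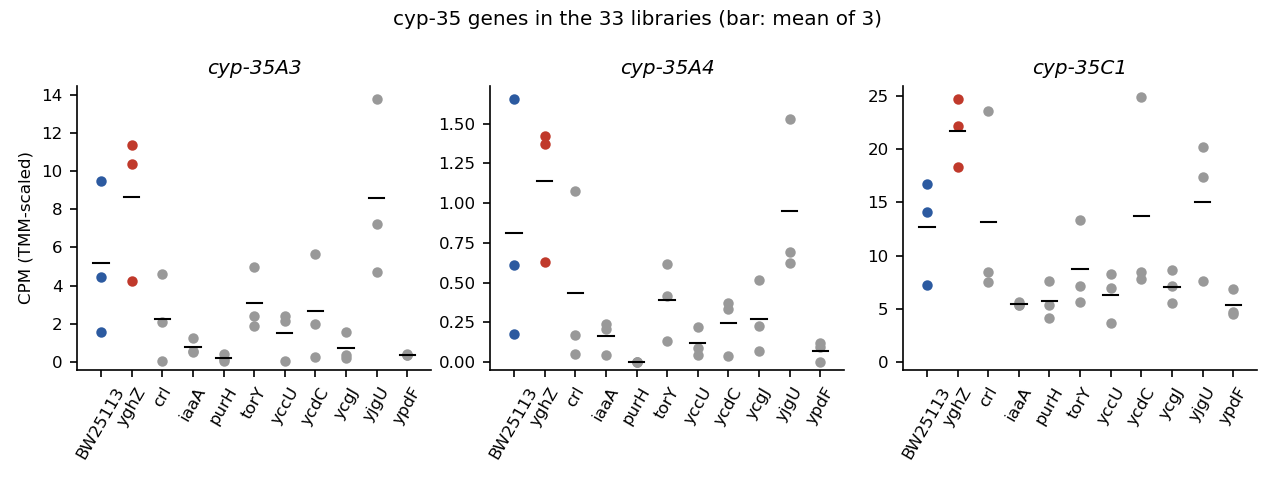
CPM (TMM-scaled, linear axis from 0) of cyp-35A3, cyp-35A4 and cyp-35C1 in the 33 libraries by diet (points: libraries, bars: means of 3). The yghZ libraries of cyp-35A3 lie between 4.22 and 11.3 CPM and overlap BW25113, yjgU and replicate 2 of crl, torY and ycdC. Several other mutants stay near 0.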

How the data were processed

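Per the labels, total RNA of whole synchronized adults was extracted with Trizol and sequenced on a DNBSEQ platform. The authors deposited, per library, estimated read counts and TPM values per gene symbol. Per the submitters' processing notes, the genome build was WBcel235 and the tools included Bowtie2, HISAT and StringTie. What each tool did, which one counted reads, its strand setting and the gene models are not given here. Estimated counts (deposited, 7.78% to 10.0% of genes not whole in a library) were rounded to whole numbers. The deposited TPM values were used only for levels per length.

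Counts of 33 libraries (11 diets of 3) were filtered with filterByExpr, which kept 14696 of 18811 genes (4115 left out with 0.0197% of counts), scaled by TMM and fitted by diet with edgeR 4.0.16 (R 4.3.3) by quasi-likelihood, with 22 residual degrees of freedom and a biological coefficient of variation of 44.5%. P-values were adjusted by Benjamini-Hochberg over all genes tested, and genes were called at an adjusted p under 0.05. Standard errors (SE) were taken as the size of the log2 fold change over the root of its F statistic. Group means are given ± SD with n = 3. The procedure was tested on simulated data. Gene positions come from Ensembl release 115 on WBcel235, with 18153 symbols matched by symbol, 537 by locus name and 121 unmatched. DESeq2 1.42.0 was an alternative.

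No replicate pair of these diets agreed within sampling noise (chi-square per degree of freedom 42.5 to 241). Deviations of same-numbered yghZ and BW25113 libraries from their group means correlated at r = 0.36, 0.31 and 0.39, and of different numbers at -0.41 to -0.02. Deviations of 3 libraries from their own mean cancel out within each gene. Positive same-number values therefore bring negative different-number values, which are not separate evidence for the pairing. The pairing comes from the numbers in the titles alone, and same-numbered libraries of 41 of the 55 pairs of diets did not deviate together in this way (all 3 r above 0.1).

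The comparison, the 37 gene lists and the rules were chosen with earlier results of these data known. Named against BW25113 were the 10 genes higher and 10 lower with the lowest unadjusted p, 5 CPM or more on average in the 6 libraries, no overlap and a symbol of letters, a hyphen and a number. In each list described, up to 4 members with the lowest p and at least 1 CPM were named, and against the other mutants 6 genes in each direction with at least 5 CPM. Exact permutation tests over 3 against 3 libraries are two-sided and cannot go below p = 0.1.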

Additional observations from a re-analysis of the deposited data

How the results depend on the processing

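The count of genes called between yghZ and BW25113 was 0 in the 33-library fit and in 14 of 20 alternative fits, 13 of them planned: RLE scaling, no filter on low counts, DESeq2, the 6 libraries alone, leaving out torY and yccU, robust dispersions, the replicate block over 33 libraries, and leaving out each library, which left 204 to 1881 genes at an unadjusted p under 0.05. Total-count scaling, added later, also called 0. The replicate block over 33 libraries changed no call. The other 6, all added after seeing the data, used the 6 libraries alone. There edgeR with the replicate block called 788 genes, DESeq2 without the block 256 and DESeq2 with it 762, and leaving out each replicate pair from the edgeR block fit gave 109 (without pair 1), 1099 (without pair 2) and 596 (without pair 3). All 256 genes and 604 of the 762 were among the 788, in the same direction. The 3 fits without a pair have 1 residual degree of freedom, and the block fit leaned on a spread shared across genes (25.7 prior degrees of freedom). The cause of the difference between 0 and 788 was not tested; the coefficient of variation was 44.5% over 33 libraries and 27.2% in the 6 with the block.

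Against the other 9 mutants, DESeq2 called 1 gene (T14G10.8) and the 30 mutant libraries with the replicate block, added later, called 1 (cyp-35A3, edgeR adjusted p 0.0200), where the other alternatives called 0. Total-count scaling moved the median of all genes by 0.61 and the genes at an unadjusted p under 0.05 from 711 higher and 275 lower to 2317 higher and 30 lower. The 204 came without yghZ replicate 1 and the 1881 without yghZ replicate 2, beside 986 with all libraries; without BW25113 replicates 1 and 2 there were 568 and 364. Of 188 genes followed through 2631 values in the 13 fits listed first and total-count scaling, 20 changed sign under some alternative and 0 were called; the added fits of 6 libraries are not in these counts. Of 41 list medians followed in the same way, 39 moved by more than the spread between replicates under some alternative. Depth of 22.0 to 22.5 M counts limits genes under about 1 CPM.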
